A study of Mus musculus with 18 samples.

Results

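The retinal messenger RNA of 10 genes that serve the transmitters and neuropeptides of amacrine cells was compared between naïve mice, light-exposed mice given vehicle and light-exposed mice given TD139, a small-molecule inhibitor of galectin-3. The genes were Sst, Npy, Tac1, Vip, Nos1, Gad1, Gad2, Slc6a9, Th and Chat. They were chosen by their symbols, with earlier results of these data known, and are 10 of the 23420 gene symbols counted. Their values are therefore a description and give no independent evidence for the choice. All 10 passed the filter on low counts. After TD139, transcripts of the peptide precursors Sst, Tac1 and Npy were lower than after vehicle, whereas those of Gad1, Gad2, Slc6a9, Th, Chat and Vip passed the test in no comparison of the uncorrected fit. Nos1 was higher after TD139 than in naïve mice. With a correction for transcript length and GC content, Sst and Tac1 kept their calls for TD139 against vehicle, Npy lost its call, and Gad2 was called lower with TD139 than with vehicle and higher with vehicle than in naïve mice. For TD139 against naïve mice the corrected edgeR fit called 0 of 15196 genes (1093 higher and 1118 lower at an unadjusted p under 0.05), so the calls of Sst and Nos1 were lost there, at log2 fold changes of −0.44 and 1.51 against −0.89 and 1.80 without the correction.

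RNA-sequencing covered whole retinas of 9 young adult, wild-type BALB/cJ mice, an albino strain, with 3 separate mice in each group. Naïve mice received neither light nor treatment. Vehicle-treated mice were exposed to white light of 15000 lux for 1 h and received DMSO by daily intraperitoneal injection, starting on the day before the light, and TD139-treated mice received 15 mg/kg TD139 in DMSO on the same schedule. Retinas of both light-exposed groups were taken 4 days after the light. Since no group had light without injections or injections without light, light and vehicle cannot be told apart where vehicle-treated mice are set against naïve mice. Each mouse was read in 2 runs, which were summed.

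Amacrine cells are the inhibitory interneurons of the inner retina, placed between bipolar cells and ganglion cells. Most of them release GABA or glycine as a fast transmitter, and many subtypes release in addition a neuropeptide, dopamine, acetylcholine or nitric oxide that tunes the retinal circuits more slowly and over a wider area. Neuropeptides are made as larger precursors, which are cut by convertases and stored in dense core vesicles. Light damage of the albino retina primarily kills photoreceptors, whereas amacrine cells lie in the inner retina.

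Sst, Tac1 and Npy were called lower with TD139 than with vehicle, and Nos1 was called higher with TD139 than in naïve mice, so the 250 bases before the RefSeq start of each were read on GRCm38.p6. The windows are chr16:23890845-23891094 on the minus strand for Sst, chr6:7554811-7555060 on the plus strand for Tac1, chr6:49822460-49822709 on the plus strand for Npy, and chr5:117866589-117866838 on the plus strand for Nos1. By the GENCODE positions the Nos1 window lies inside the gene, whose 5′ end is at 117781032. It is therefore not the sequence before that end, and its use as a promoter in the retina was not tested. The Sst and Tac1 windows contain the GENCODE 5′ ends, at 23890958 and 7554879. Capitals mark the cyclic AMP response element (CRE) TGACGTCA or its shorter core TGACG, on either strand, and sequences run 5′ to 3′ along the gene.
Sst: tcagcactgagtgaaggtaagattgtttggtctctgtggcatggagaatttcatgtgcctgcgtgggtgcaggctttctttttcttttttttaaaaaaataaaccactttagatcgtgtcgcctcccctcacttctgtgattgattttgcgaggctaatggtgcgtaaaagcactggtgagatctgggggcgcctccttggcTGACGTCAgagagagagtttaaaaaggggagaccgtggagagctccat
Tac1: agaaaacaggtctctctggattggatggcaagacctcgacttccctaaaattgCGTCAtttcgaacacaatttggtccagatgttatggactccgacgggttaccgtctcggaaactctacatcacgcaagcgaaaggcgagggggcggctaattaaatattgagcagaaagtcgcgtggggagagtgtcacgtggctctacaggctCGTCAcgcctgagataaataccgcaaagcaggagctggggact
Npy: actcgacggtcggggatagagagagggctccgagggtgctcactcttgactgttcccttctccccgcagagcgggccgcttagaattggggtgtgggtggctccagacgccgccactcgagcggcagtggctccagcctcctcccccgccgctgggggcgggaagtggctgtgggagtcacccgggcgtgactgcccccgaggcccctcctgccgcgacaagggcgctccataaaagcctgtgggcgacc
Nos1: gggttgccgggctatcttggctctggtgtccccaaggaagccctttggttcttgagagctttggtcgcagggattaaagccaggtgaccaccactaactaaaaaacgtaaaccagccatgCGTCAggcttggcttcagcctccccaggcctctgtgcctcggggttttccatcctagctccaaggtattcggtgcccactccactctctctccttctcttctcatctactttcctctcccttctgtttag

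The promoter of Sst held the full CRE, with its first base 48 bases before the start. Tac1 held the core at 197 and 43 bases and the Nos1 window at 130 bases before the RefSeq start, while the letters of neither motif were found in Npy. Over windows of 300 bases, from 250 before to 50 after the start, the CRE was also found in Th, at 45 bases, and in no other of the 10 genes. The Th window, too, lies inside the GENCODE span of its gene, whose 5′ end is at 142931128. In 32851 such windows of 27025 mouse genes, 1.79% held the CRE and 20.8% the core, which every CRE contains on both strands. The core was present in at least 1 window of 8 of the 10 genes. That is a count of genes, of which Slc6a9 has several windows, whereas 20.8% is a share of windows. The units differ, and no excess is read from them. The letters TATAAA, searched on both strands, were found in Vip and Gad1 and in 13.6% of all windows. These matches describe the letters and identify no binding.

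Between 26171887 and 30201517 reads per mouse were counted on genes, and a floor of 3 counts stands for 0.0993 to 0.115 CPM, the count scaled to the library total, and covers counting error only. Levels below are CPM after TMM normalisation, given as mean ± SD of 3 mice. Differences are log2 fold changes of the edgeR quasi-likelihood fit with their standard errors (SE), and p-values carry the Benjamini-Hochberg adjustment over all 15196 genes that were tested. A gene was called at an adjusted p under 0.05. An exact permutation test of 3 against 3 mice cannot fall below 0.1 and was therefore not used. No member reached the cut-off of 2 on the log2 scale that the study applied in the fit of all mice and both runs. Nos1 for TD139 against naïve mice passed it with run 2 alone, at 2.065, and without naïve mouse 3, at 2.095. The 3 comparisons share their groups of mice and are not independent of each other.

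To compare levels between genes, the mean CPM of naïve mice was divided by the length of the longest coding transcript. Gad1 led with 78.6 ± 5.98 CPM per kb, followed by Slc6a9 with 70.6 ± 3.35, and the values of individual mice overlapped between these genes of the fast inhibitory transmitters. Sst followed with 35.7 ± 4.16, Npy with 26.0 ± 6.71, Tac1 with 15.8 ± 0.767, Gad2 with 9.85 ± 1.65 and Vip with 6.08 ± 1.68 CPM per kb, without overlap between neighbours. Th at 4.03 ± 0.586 and Chat at 3.23 ± 0.355 CPM per kb overlapped each other. Nos1 was the least abundant, at 0.106 CPM per kb, with individual mice from 0.0493 to 0.145. In whole tissue, fewer cells of a type and less RNA per cell cannot be told apart, and none of these genes is read in amacrine cells alone.

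**Figure D1:**
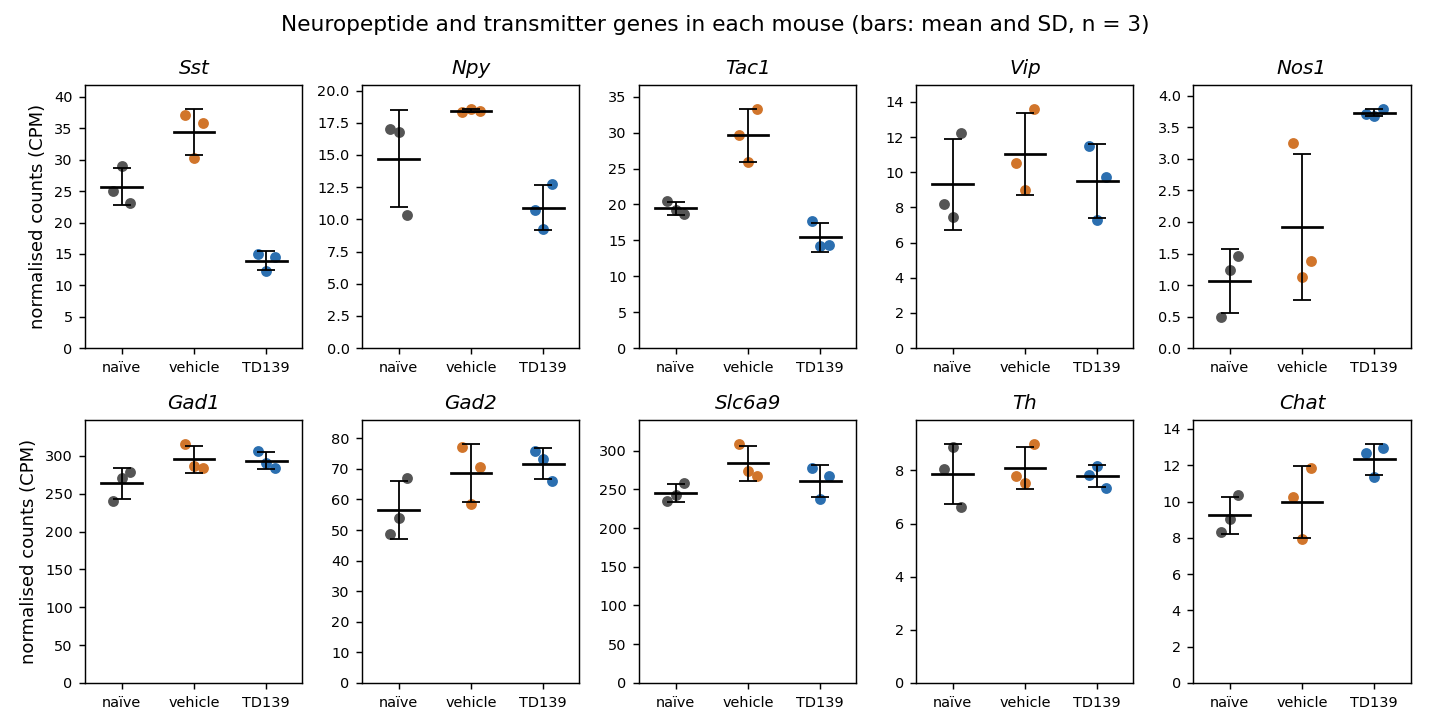
Normalised counts (CPM, linear axis from 0) of the 10 genes in each of the 9 mice, with the mean and SD of 3 mice per group. TD139-treated mice lie below both other groups for Sst and Tac1, below vehicle-treated mice for Npy and above both other groups for Nos1, whereas the groups overlap for Th and Vip.

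Somatostatin, encoded by Sst (chr16:23889573-23890958, minus strand), is a peptide of sparse wide-field amacrine cells. Sst measured 25.0, 29.0 and 23.2 CPM in naïve, 37.1, 30.2 and 35.9 CPM in vehicle-treated and 15.0, 12.2 and 14.5 CPM in TD139-treated mice. Each vehicle-treated mouse was above each naïve mouse, and each TD139-treated mouse was below all others. With TD139 Sst was 2.47-fold lower than with vehicle, a log2 fold change of −1.31 (SE 0.14, 95% confidence interval −1.60 to −1.01, adjusted p = 0.00500), and this call was kept in each of the 9 fits that left out a mouse. It was also lower than in naïve mice, by −0.89 (SE 0.14, adjusted p = 0.0406). That second call was lost without naïve mouse 1 or 2, TD139-treated mouse 2 or 3, or vehicle-treated mouse 2, with adjusted p of at most 0.163. The higher level after vehicle than in naïve mice, 0.42 (SE 0.13), did not pass the edgeR test (adjusted p = 0.0732) but was called by DESeq2 (adjusted p = 0.0305).

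Tac1 (chr6:7554879-7565834, plus strand) encodes the precursor of substance P and neurokinin A. Its levels were 20.5, 19.2 and 18.7 CPM in naïve, 29.7, 25.9 and 33.3 CPM in vehicle-treated and 17.7, 14.2 and 14.4 CPM in TD139-treated mice. The vehicle-treated mice stood above both other groups without overlap, and the TD139-treated mice stood below the naïve mice. Tac1 rose with vehicle after light by 0.61 (SE 0.13, adjusted p = 0.0269) relative to naïve mice. It fell by 0.94 on the log2 scale with TD139 relative to vehicle (SE 0.14, adjusted p = 0.00500), again in each of the 9 fits without a mouse, and the difference from naïve mice was −0.33 (SE 0.14, adjusted p = 0.130). The rise with vehicle was not called on leaving out any of the naïve mice or vehicle-treated mouse 1 or 3, with adjusted p between 0.0609 and 0.0950.

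Neuropeptide Y is encoded by Npy (chr6:49822710-49829507, plus strand). Npy was at 17.0, 16.8 and 10.3 CPM in naïve, at 18.3, 18.6 and 18.4 CPM in vehicle-treated and at 10.8, 9.25 and 12.7 CPM in TD139-treated mice. Vehicle-treated mice lay close together above all TD139-treated mice, whereas naïve mouse 3 was within the range of the TD139 group. With TD139, Npy fell by 0.76 on the log2 scale relative to vehicle (SE 0.20, adjusted p = 0.0149), and the adjusted p was 0.0732 without TD139-treated mouse 2. Relative to naïve mice the difference was −0.43 (SE 0.20, adjusted p = 0.165), and vehicle-treated mice differed from naïve mice by 0.32 (SE 0.19, adjusted p = 0.298).

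Vip, the precursor of vasoactive intestinal peptide, was the remaining peptide gene and overlapped between all groups. It measured 8.22, 7.46 and 12.2 CPM in naïve, 10.5, 8.97 and 13.6 CPM in vehicle-treated and 11.5, 7.27 and 9.72 CPM in TD139-treated mice. TD139 against vehicle gave −0.22 (95% confidence interval −0.74 to 0.31, adjusted p = 0.497). The interval reached past 0 on both sides, and the difference from the other peptide genes was not tested.

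Nos1 (chr5:117781032-117958840, plus strand) encodes neuronal nitric oxide synthase, which marks a population of amacrine cells. Naïve mice held 0.50, 1.24 and 1.47 CPM, from 13, 33 and 40 counts. Vehicle-treated mice held 3.25, 1.13 and 1.38 CPM, from 91, 32 and 41 counts, and TD139-treated mice 3.71, 3.69 and 3.79 CPM, from 100, 106 and 96 counts. Thus vehicle-treated mouse 1 was near the level of the TD139 group, while the other vehicle-treated mice were within the naïve range. TD139 against naïve mice gave a log2 fold change of 1.80 (SE 0.45, 95% confidence interval 0.80 to 2.79, adjusted p = 0.0481), a 3.47-fold difference. This call was lost without naïve mouse 1 or 2, TD139-treated mouse 2 or 3, or vehicle-treated mouse 2 or 3, with adjusted p of up to 0.167. Against vehicle the difference was 0.96 (SE 0.43, adjusted p = 0.107) with all mice and 1.57 (adjusted p = 0.0249) without vehicle-treated mouse 1. Vehicle against naïve mice gave 0.84 (SE 0.45, adjusted p = 0.254), and 0.24 without that mouse.

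The members that serve GABA and glycine, Gad1, Gad2 and Slc6a9, passed the test in no comparison of this fit. Gad1 and Gad2 encode the enzymes that make GABA from glutamate. Gad1 measured 264 ± 20.1 CPM in naïve, 296 ± 17.9 CPM in vehicle-treated and 294 ± 11.3 CPM in TD139-treated mice, with a difference between TD139 and vehicle of −0.0100 (95% confidence interval −0.21 to 0.19). Gad2 measured 56.6 ± 9.49, 68.8 ± 9.49 and 71.7 ± 5.11 CPM in the same order of groups, and its difference between TD139-treated and naïve mice, 0.34 (SE 0.14), did not pass the test (adjusted p = 0.127). Slc6a9 encodes the glycine transporter GlyT1, present in glycinergic amacrine cells. It was at 245 ± 11.6 CPM in naïve, 283 ± 22.5 CPM in vehicle-treated and 261 ± 20.9 CPM in TD139-treated mice. Vehicle-treated mice were above naïve mice without overlap for Gad1 and Slc6a9, but the differences of 0.17 (adjusted p = 0.274) and 0.21 (adjusted p = 0.196) did not pass the test. Slc6a9 overlaps Ccdc24 and B4galt2 on the opposite strand, and whether strand was used in counting is not given in the sources used here.

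Th encodes tyrosine hydroxylase, the rate-limiting enzyme of dopamine synthesis, and Chat encodes choline acetyltransferase of the starburst amacrine cells. Th was at 7.87 ± 1.14 CPM in naïve, 8.11 ± 0.789 CPM in vehicle-treated and 7.78 ± 0.414 CPM in TD139-treated mice, and the interval of the difference between TD139 and vehicle was −0.42 to 0.30. Chat had means of 9.24 ± 1.01 CPM in naïve and 12.3 ± 0.865 CPM in TD139-treated mice, and vehicle-treated mice, at 10.2, 7.91 and 11.9 CPM, overlapped both. The 3 TD139-treated mice, at 12.7, 11.3 and 13.0 CPM, stood above the naïve mice, at 8.34, 9.04 and 10.3 CPM, but the difference of 0.42 (SE 0.17) did not pass the test (adjusted p = 0.140). The gene of the vesicular acetylcholine transporter, Slc18a3, lies on the same strand within the span of Chat, and reads on shared sequence cannot be assigned to either. Slc18a3 fell with TD139 relative to vehicle, from 17.2 ± 0.403 to 11.5 ± 1.30 CPM (log2 fold change −0.58, SE 0.15, adjusted p = 0.0142; −0.27 with the length and GC correction, adjusted p = 0.113), while Chat differed by 0.30 (SE 0.17, adjusted p = 0.191).

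**Figure D2:**
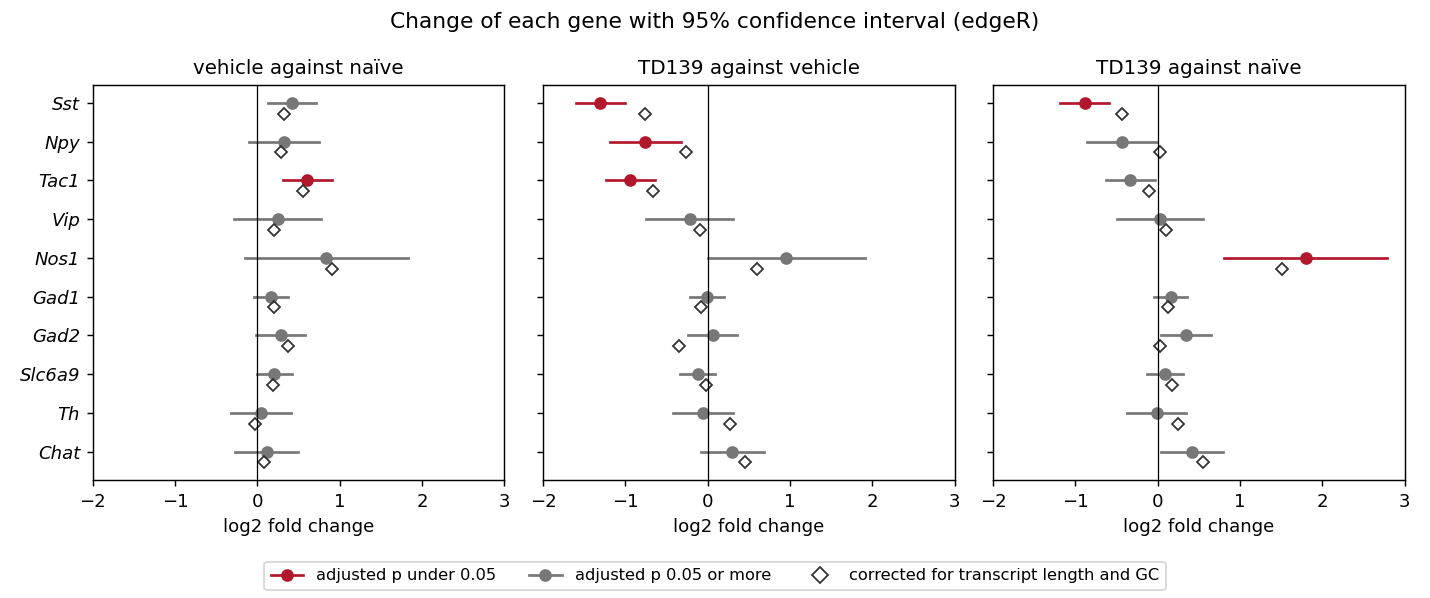
Log2 fold change of the 10 genes in the 3 comparisons (circles, with 95% confidence intervals; red, adjusted p under 0.05) and the value after the length and GC correction (open diamonds). With TD139 against vehicle Sst, Npy and Tac1 lie left of 0 at −1.31, −0.76 and −0.94, and their diamonds at −0.76, −0.26 and −0.66.

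Counted over the members, vehicle against naïve mice called 1 of 10 genes higher and 0 lower by edgeR, where 4.91% and 2.89% of all tested genes were called. At an unadjusted p under 0.05 these numbers were 2 and 0, beside 14.4% and 13.2% of all genes, and DESeq2 called Sst and Tac1 higher and 0 lower, beside 8.92% and 7%. All 10 log2 fold changes of this comparison were above 0 in the uncorrected edgeR fit of all mice. Leaving out a mouse took Th as low as −0.059 and Chat as low as −0.028. In the fit corrected for length and GC content Th was at −0.027. In that corrected fit 6 members were higher and 0 lower at an unadjusted p under 0.05, beside 16.7% and 15.8% of all genes. TD139 against vehicle called 0 higher and 3 lower, beside 17.2% and 16.2% of all genes. At an unadjusted p under 0.05, Nos1 was in addition higher, beside 23.4% higher and 23% lower of all genes, and DESeq2 called 0 and 3, beside 19.9% and 18.7%. TD139 against naïve mice called 1 higher and 1 lower, beside 2.72% and 2.38% of all genes, with 3 higher and 3 lower at an unadjusted p under 0.05, beside 15.5% and 14.1%, and 1 and 1 by DESeq2, beside 9.2% and 7.37%. The mice of both groups did not overlap for 5 members between vehicle and naïve, for 4 between TD139 and vehicle and for 5 between TD139 and naïve, beside 33.3%, 51.5% and 32.2% of all genes. The median log2 fold change of the members was 0.26, −0.09 and 0.06 in these comparisons, and that of all genes −0.0018, −0.016 and −0.0023. Nothing particular to the 10 genes is read from these counts.

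The change with TD139 was graded by transcript length across all genes. The median log2 fold change of TD139 against vehicle was −0.50 for 839 genes with a transcript under 1 kb, −0.32 for 2971 genes of 1 to 2 kb, −0.06 for 6038 genes of 2 to 4 kb, 0.24 for 4358 genes of 4 to 8 kb and 0.54 for 862 genes of 8 kb or more. Npy (0.57 kb), Sst (0.72 kb) and Tac1 (1.23 kb) have the shortest transcripts of the members, and Nos1 (10.12 kb) has the longest. For vehicle against naïve mice the medians ran only from 0.07 to −0.09. With an offset per mouse that removes the dependence on length and GC content, Sst still fell by 0.76 (adjusted p = 0.0127) and Tac1 by 0.66 (adjusted p = 0.0127) with TD139 relative to vehicle. Npy then differed by −0.26 (adjusted p = 0.244), and Gad2, with a transcript of 5.74 kb, was called lower, by −0.34 (adjusted p = 0.0469), against 0.06 without the correction. In the corrected fit neither Sst, at −0.44 (adjusted p = 0.220), nor Nos1, at 1.51 (adjusted p = 0.156), was called against naïve mice. For vehicle against naïve mice Tac1 kept its rise, at 0.56 (adjusted p = 0.0231), and Gad2 was called higher, at 0.37 (adjusted p = 0.0442). The corrected fit called 9.5% of all genes higher and 9.51% lower for TD139 against vehicle, 7.79% and 6.21% for vehicle against naïve mice, and 0% in either direction for TD139 against naïve mice. At an unadjusted p under 0.05 it gave 18.6% higher and 18.2% lower for TD139 against vehicle. The share of reads outside genes was also highest in the TD139 group, at 21.3 to 22.8%, against 19.1 to 19.9% in the naïve and 16.5 to 19.4% in the vehicle group, and its part in these differences was not tested.

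**Figure D3:**
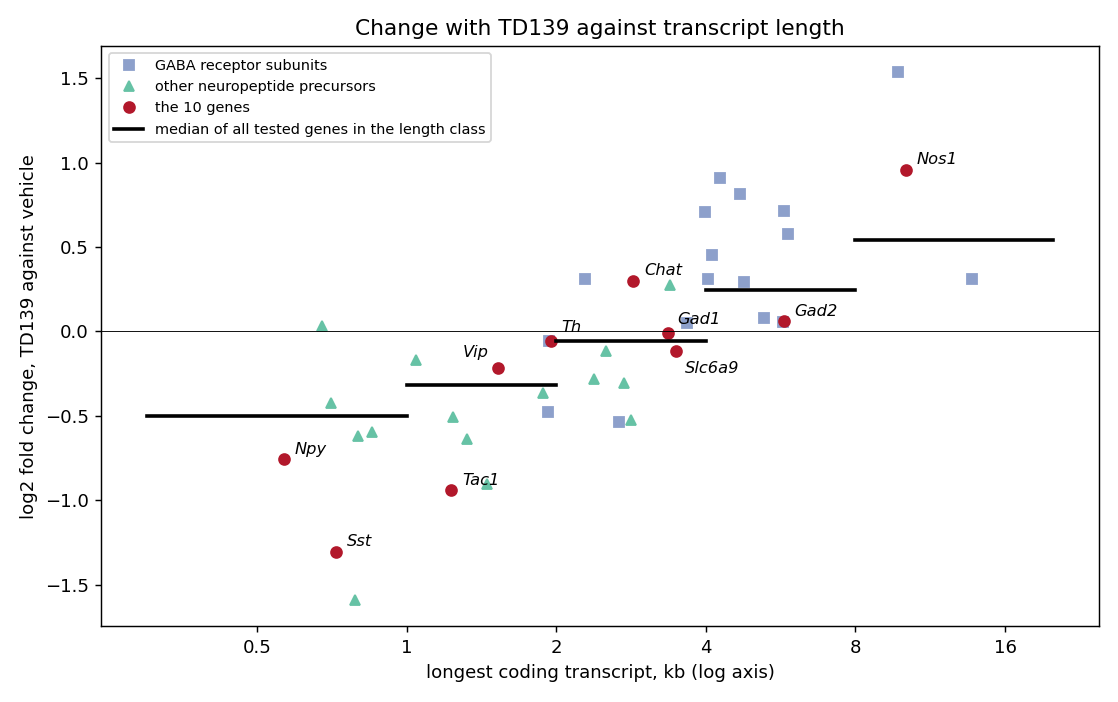
Log2 fold change of TD139 against vehicle by length of the longest coding transcript (kb, log axis) for the 10 genes (red circles, named), other neuropeptide precursors (green triangles) and GABA receptor subunits (blue squares); black bars are medians of all tested genes in 5 length classes. The medians run from −0.50 under 1 kb to 0.54 at 8 kb or more, with Sst, Npy and Tac1 below the median of their class and Nos1 above it.

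Other genes of the same systems were read from lists, and each count stands beside the share of all genes given above for the same comparison, fit and threshold. Of 15 tested precursors of other neuropeptides and granins, 7 were lower with TD139 than with vehicle and 0 were higher, also at an unadjusted p under 0.05 and with DESeq2. Cartpt, the precursor of the CART peptide, fell from 206.6 ± 9.93 to 145.4 ± 3.09 CPM (log2 fold change −0.51, SE 0.11, adjusted p = 0.00756; −0.046 with the length and GC correction, adjusted p = 0.709). Chgb, the granin chromogranin B, fell by 0.31 (SE 0.10, adjusted p = 0.0415). Gal, the galanin precursor, is scarce in the retina. It rose from 0.754 ± 0.327 to 2.12 ± 0.730 CPM between naïve and vehicle-treated mice (log2 fold change 1.49, SE 0.40, adjusted p = 0.0456) and was 0.701 ± 0.0667 CPM with TD139 (log2 fold change against vehicle −1.59, SE 0.40, adjusted p = 0.0140). The median transcript of these precursors is 1.32 kb, their median log2 fold change was −0.42, and with the offset it was −0.07, with 0 of the 15 called in either direction by edgeR and 1 higher and 1 lower at an unadjusted p under 0.05.

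Of 6 genes that process peptide precursors, Pcsk1n, whose product inhibits a convertase, fell with TD139 relative to vehicle, from 465.7 ± 5.82 to 296.7 ± 10.8 CPM (log2 fold change −0.65, SE 0.12, adjusted p = 0.00610; −0.31 with the correction, adjusted p = 0.0345), and the other 5 were not called. With the correction 2 of the 6 were lower, Pcsk1n and the convertase gene Pcsk2 (−0.48, adjusted p = 0.0135), the latter named after its value was seen. Of 12 receptors of somatostatin, neuropeptide Y, VIP and tachykinins, 1 was called, the tachykinin receptor Tacr3, which was higher with TD139 than with vehicle (0.39, SE 0.13, adjusted p = 0.0383; 0.19 with the correction, adjusted p = 0.296).

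Of 17 tested subunits of GABA receptors, 6 were higher and 1 lower with TD139 than with vehicle, and the median log2 fold change was 0.31, with a median transcript of 4.27 kb. After the correction the median of the list was −0.02, with 1 higher and 1 lower, and 5 higher and 1 lower at an unadjusted p under 0.05. Of 6 genes that transport or break down GABA, the vesicular transporter Slc32a1 fell from 167.5 ± 12.6 to 137.8 ± 11.1 CPM with TD139 relative to vehicle (log2 fold change −0.28, SE 0.10, adjusted p = 0.0427; −0.05 with the correction). Abat, the enzyme that breaks down GABA, rose with vehicle relative to naïve mice (0.40, SE 0.11, adjusted p = 0.0477).

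Of 7 genes of glycine transport and reception, the receptor subunit Glra1 was called, at 1.64 ± 0.326 CPM with vehicle and 4.54 ± 1.37 CPM with TD139 (log2 fold change 1.47, SE 0.36, adjusted p = 0.0124). With the correction the difference was 1.69 (adjusted p = 0.0176). All 7 log2 fold changes of TD139 against vehicle were above 0 in the uncorrected fit, at a median of 0.98, and 0.80 with the correction. At an unadjusted p under 0.05, 4 of the glycine genes were higher and 0 lower, and DESeq2 called 3 and 0. Among 16 genes of acetylcholine, 3 were higher and 1, Slc18a3, was lower with TD139 than with vehicle, and with the correction 1 was higher and 0 were lower, with 3 and 4 at an unadjusted p under 0.05. Among 10 genes of dopamine, 0 were higher and 3 were lower, with 0 higher and 4 lower at an unadjusted p under 0.05 and 0 and 3 by DESeq2. With the correction 1 of them was lower. Gch1, which makes the cofactor of tyrosine hydroxylase, rose with vehicle relative to naïve mice from 1.05 ± 0.164 to 3.23 ± 1.60 CPM (log2 fold change 1.61, SE 0.36, adjusted p = 0.0269) and fell with TD139 to 1.39 ± 0.212 CPM (−1.21, SE 0.35, adjusted p = 0.0233), while Th itself did not pass the test. Of 9 genes of nitric oxide signalling, 2 were higher and 1 lower with TD139 than with vehicle, whereas with the correction 0 were higher and 2 lower, with 1 and 2 at an unadjusted p under 0.05. Prkg1, the cGMP-dependent kinase downstream of nitric oxide, rose with vehicle from 17.2 ± 3.59 to 37.2 ± 6.11 CPM relative to naïve mice (log2 fold change 1.11, SE 0.18, adjusted p = 0.0127). With TD139 relative to vehicle it differed by −0.44 (adjusted p = 0.0708), and by −0.99 with the correction (adjusted p = 0.0125).

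**Figure D4:**
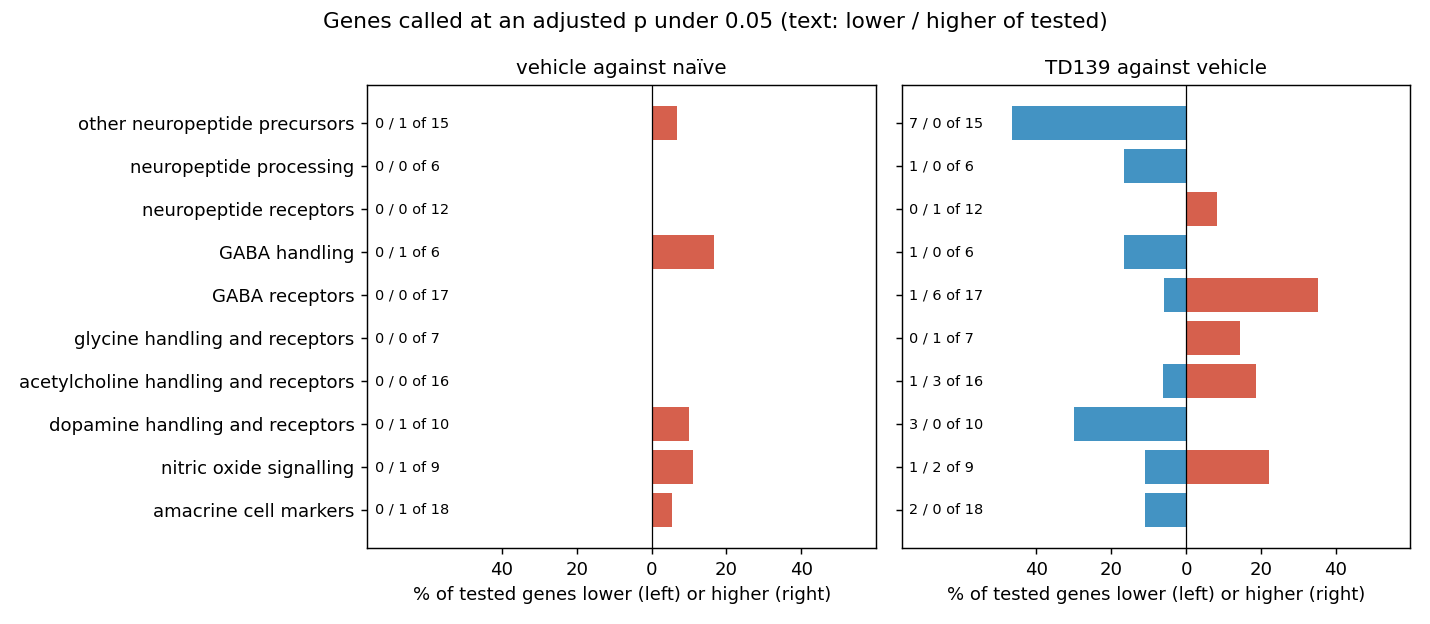
Percent of the tested genes of 10 lists that were called lower (blue, left) or higher (red, right) at an adjusted p under 0.05, for vehicle against naïve mice and TD139 against vehicle. Other neuropeptide precursors had 7 of 15 genes lower with TD139, and GABA receptors had 6 of 17 higher and 1 lower.

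Markers of the cells around these genes were read in the same libraries. Of 19 amacrine cell markers all were detected, and their summed level was 1451 to 1567 CPM in the naïve, 1533 to 1830 CPM in the vehicle and 1560 to 1719 CPM in the TD139 group. Of the 18 tested, Sox2, which also marks Müller glia, rose with vehicle relative to naïve mice (0.92, SE 0.15, adjusted p = 0.0133), while DESeq2 called 3 of the 18 higher and the corrected fit 5. These 5 were Sox2, Pax6, Tfap2a, Tfap2b and Ebf3, of which the last 3 were named after their values were seen. All 18 log2 fold changes of the uncorrected edgeR fit were above 0, where the median of all genes was −0.0018. With the correction Calb2 was at −0.027 in this comparison. Further, Sox2 and Calb2 were lower with TD139 than with vehicle. With the correction Sox2 kept that call (−0.48, adjusted p = 0.0307), while Calb2 turned from −0.37 to 0.042 (adjusted p = 0.770). The 10 rod markers summed to 72834 to 84471 CPM in the naïve, 42513 to 59822 CPM in the vehicle and 60251 to 74939 CPM in the TD139 group, and 6 of them were lower with vehicle than in naïve mice. The 10 microglia markers summed to 63.6 to 68.8, 268 to 494 and 46.4 to 164 CPM. The 8 Müller glia markers had 3 genes higher with vehicle than in naïve mice and 2 lower with TD139 than with vehicle. The 10 gliosis and injury genes summed to 311 to 465 CPM in the naïve, 1158 to 2222 CPM in the vehicle and 240 to 481 CPM in the TD139 group, with 5 higher with vehicle than in naïve mice and 8 lower with TD139 than with vehicle, at median log2 fold changes of 2.44 and −2.57. The part of these changes in the levels of the 10 genes was not tested. Vehicle-treated mouse 2 stood apart, with 9445 CPM over 10 markers of lens and pigment epithelium against 120.4 to 565.9 CPM in the other 8 mice. In the vehicle group the lens crystallins Cryaa and Crybb2 were at 1838 ± 3177 and 715 ± 1236 CPM, whereas Rpe65 of the pigment epithelium was at 33.8 ± 8.31 CPM. Without this mouse, TD139 against vehicle gave −1.39 for Sst, −1.03 for Tac1 and −0.75 for Npy, with adjusted p of 0.0122, 0.0122 and 0.0362.

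Leaving out 1 mouse ended many of the calls of these list and marker genes. For TD139 against vehicle, Cartpt, Pcsk1n and Sox2 kept theirs in each of the 9 fits, which were made without the length and GC correction. Without TD139-treated mouse 2 the calls of Slc18a3, Gal, Glra1, Gch1, Chgb, Tacr3, Slc32a1 and Calb2 were lost, and without TD139-treated mouse 3 all of these but Slc18a3. Those of Gch1, Chgb, Tacr3, Slc32a1 and Calb2 were also lost without vehicle-treated mouse 3, those of Chgb and Tacr3 without vehicle-treated mouse 2, those of Slc32a1 and Calb2 without vehicle-treated mouse 1, and those of Chgb, Tacr3, Slc32a1 and Calb2 without naïve mouse 2, with adjusted p of at most 0.163. For vehicle against naïve mice, Abat and Gal lost theirs in 8 of 9 fits, all except that without TD139-treated mouse 1. Gch1 lost its call on leaving out any of the naïve mice or vehicle-treated mouse 3, Prkg1 without vehicle-treated mouse 3 or naïve mouse 1 or 2, and Sox2 without naïve mouse 2 or vehicle-treated mouse 3, with adjusted p of at most 0.147 over these genes.

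As a description over the 9 mice, which share their groups and the same gradient with transcript length, the genes whose log2 CPM was most correlated with a member were read among 12896 genes in no list. For Sst the closest was Bcl2l1 (Pearson r = 0.98), for Tac1 Snap47 (r = 0.99), for Npy Cox14 (r = 0.98) and for Nos1 Rbms3 (r = 0.99). Th had the weakest closest gene, 4933412E12Rik (r = 0.92).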

How the data were processed

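RNA of whole retinas of 9 mice was sequenced after stranded poly(A) library preparation. For each mouse and run, the authors deposited raw counts of reads per gene symbol, made with BaseSpace RNA Express and not normalised. The submitters' processing notes name the build mm10, and the annotation used for counting is not given in the sources used here. Both runs of a mouse were summed (chi-square per degree of freedom over genes between runs 1.63 to 1.80), and the mouse was the replicate. Rows that name no gene (no feature and ambiguous, the latter 0.303 to 0.471% of reads) entered neither library sizes nor tests.

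The 3 groups were fitted together with edgeR 4.0.16 in R 4.3.3 (filterByExpr, TMM, robust quasi-likelihood F test), since the study names RNA Express and DESeq2-normalised counts but no design formula or covariates. The steps were tested on simulated data. Alternatives were DESeq2 1.42.0, other scalings and filters, only the groups compared, single runs, the replicate number in the model, each mouse left out, and a spline of 4 degrees of freedom on transcript length and on GC content per mouse as an offset. Of the symbols, 98.4% were matched to GENCODE M21 (GRCm38) for positions and lengths, and promoter sequences are those of RefSeq on GRCm38.p6, which held all 10 genes.

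The members and lists were chosen with earlier results of these data known. All members were named, and of each other list the 2 genes with the highest mean count and the gene with the lowest p per comparison if called, of which those that bear on the members are given. Not every gene that meets this rule is reported here. For each member, the 3 genes of most similar pattern were found and the closest of 5 members is named.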

Additional observations from a re-analysis of the deposited data

Results flagged for a closer look

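Reads that fell outside genes, which no comparison used, made up 21.3% in TD139-treated mouse 1, 22.8% in mouse 2 and 22.6% in mouse 3. Each of these values lay above the highest share in a naïve mouse, 19.9%, and in a vehicle-treated mouse, 19.4%. The part of this in the levels of the 10 genes was not tested.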

How the results depend on the processing

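Of 540 recomputed values of single members, 487 kept their direction and their side of the threshold, 26 lost and 5 gained the call and 22 changed sign. A value that changed sign was counted only as such. Among these, Gad2 also gained a call for TD139 against vehicle with the correction (−0.34, adjusted p = 0.0469). Sst and Tac1 kept their calls for TD139 against vehicle under every alternative tried. For TD139 against vehicle the number of members called stayed at 3 outside the fits that left out a mouse, where it ran from 2 (without TD139-treated mouse 2) to 4 (without vehicle-treated mouse 1). In the fit corrected for length and GC content these 3 were Sst, Tac1 and Gad2.

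For vehicle against naïve mice, 746 genes were higher and 439 lower. DESeq2 gave 1355 and 1063, the correction 1184 and 943, and library size alone 893 and 258. DESeq2 and the correction each called 2 members in place of 1. Leaving out a mouse gave 1 to 1167 genes higher, 0 to 815 lower and 0 to 1 members, with the lowest numbers without naïve mouse 2, where 1855 and 1424 genes had an unadjusted p under 0.05. For TD139 against vehicle, 2617 genes were higher and 2455 lower, 1444 and 1445 with the correction and 1942 and 3040 with library size alone, where the median of all genes was −0.10. Leaving out a mouse gave 867 to 2995 higher and 759 to 2931 lower, with the lowest numbers without TD139-treated mouse 2.

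The calls of TD139 against naïve mice were the least stable of the 3 comparisons. There 413 genes were higher and 362 lower, with 1398 and 1120 by DESeq2, 366 and 194 with library size alone, 1 and 0 with only these groups in the edgeR fit and 0 and 0 with the correction. At an unadjusted p under 0.05 the last 2 fits gave 2292 and 1867, and 1093 and 1118. Of the 2 members called, 1 remained called with library size alone and with run 1 alone, and 0 with only these groups and with the correction. Leaving out a mouse gave 0 to 1523 genes higher, 0 to 1156 lower and 0 to 4 members, with the highest numbers without naïve mouse 3 and no calls without vehicle-treated mouse 2, TD139-treated mouse 2 or 3, or naïve mouse 1 or 2. With the replicate number as a block, 0 genes were higher and 0 lower and 0 members were called, with 2315 and 2057 genes at an unadjusted p under 0.05. The labels do not pair the mice. Correlations of deviations from the group means ran from −0.26 to 0.28 between mice with the same number. Between mice with different numbers they ran from −0.28 to 0.23. With means of 3 mice these values cannot decide whether the mice were paired. The block moved no member's call in the other comparisons.

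Changes of sign were limited to differences that were not called in the fit of all mice. The correction turned Th to −0.027, 0.28 and 0.25 (vehicle against naïve, TD139 against vehicle, TD139 against naïve), Npy to 0.025 for TD139 against naïve and Gad2 to −0.34 for TD139 against vehicle. Gad2 was −0.027 there with library size alone. With run 1 alone, Th was 0.058 for TD139 against vehicle and 0.086 for TD139 against naïve, and Vip was −0.077 for TD139 against naïve. Leaving out a mouse moved Th from −0.059 to 0.15, from −0.11 to 0.022 and from −0.12 to 0.094, Chat from −0.028 to 0.26 for vehicle against naïve, Vip from −0.12 to 0.28 for TD139 against naïve, and Gad1 from −0.041 to 0.041 and Gad2 from −0.042 to 0.15 for TD139 against vehicle. The causes were not tested. With 13 to 106 counts per mouse, depth limits Nos1 most among the members.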
